A study of Mus musculus with 6 samples.

Results

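FGF1 is a heparan sulfate-binding growth factor that signals through the FGF receptors, a family of receptor tyrosine kinases. Heparan sulfate chains on the cell surface hold the ligand and 2 receptors together, and the dimerized receptors feed the RAS-ERK and PI3K-AKT cascades. ERK in turn induces its own attenuators, such as the Sprouty, SPRED and DUSP proteins, and the ETS factors ETV4 and ETV5, so the mRNAs of these genes serve as a readout of FGF receptor signaling. The comparison described here set podocytes given rFGF1ΔHBS against podocytes given rFGF1WT, at the same dose and time. Both are recombinant human proteins. rFGF1ΔHBS is a partial agonist in which lysines of the heparan sulfate-binding site are replaced, which lowers receptor dimerization assisted by heparan sulfate and with it mitogenic activity.

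The cells were MPCs, a conditionally immortalized mouse podocyte line that multiplies with interferon gamma. The study's culture methods describe differentiation for 10 days without interferon gamma. The 6 libraries of the series formed 3 groups of 2, and all cells were starved of serum for 12 h and then kept for 12 h in high glucose (HG, 25 mM). The rFGF1WT and rFGF1ΔHBS groups received 100 ng/mL of protein for 1 h before HG, and the HG group received no pretreatment. Cells at normal glucose were not analysed here. All libraries come from 1 cell line, and the labels do not say whether replicates were separate cultures, so p-values measure the spread between these libraries, which may be technical. Poly(A) RNA was sequenced from both ends, and the deposited values are FPKM, the fragments of a locus scaled to transcript length and to the mapped fragments of the library. In such bulk RNA, fewer cells of a type and less RNA per cell cannot be told apart.

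Of the 24469 loci in the table, 10499 had a mean FPKM of at least 1 over the 4 FGF1 libraries, and the 10264 of these above 0 in all 4 were compared. FPKM summed to between 179594 and 185168 per library, and depth, read from the steps of low values, was between 0.975 and 1.015 times that of the first HG library. Read totals are unknown. The podocyte label was checked against 33 markers, of which 16 were among the compared loci. *Podxl*, which encodes the sialomucin podocalyxin, had 14.8 to 17.6 FPKM over the 6 libraries, and *Synpo*, which encodes the actin-associated synaptopodin, had 4.01 to 10.2 FPKM. Defining markers were scarce. *Nphs1*, which encodes nephrin of the slit diaphragm, had 0.618 to 0.942 FPKM, and the transcription factor gene *Wt1* had at most 0.0731 FPKM. The proliferation gene *Mki67* had 53.4 to 61.4 FPKM over the 6 libraries, and how far the cells had differentiated was not tested. Of 28 markers of mesangial, endothelial, tubular and macrophage cells, 6 were among the compared loci, and the endothelial *Pecam1* and the macrophage *Adgre1* had at most 0.0789 and 0.0136 FPKM. The mesangial receptor gene *Pdgfrb* had 26.1 to 27.5 FPKM and the tubular *Lrp2* 22.2 to 24.0 FPKM in the FGF1 libraries, while *Cd68* is listed only in a locus merged with *Eif4a1*. No marker of either list had an adjusted p under 0.05 between the proteins.

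The question of this comparison is which transcripts respond differently to the partial agonist and to the full agonist. Libraries of the proteins lay about as close to each other as replicates did. The median absolute difference in log2(FPKM + 1) between an rFGF1WT and an rFGF1ΔHBS library was 0.097 to 0.114 over the 4 pairs, against 0.097 to 0.105 for the 3 pairs of replicates. Libraries with either protein lay farther from HG, with medians of 0.188 to 0.198 over the 8 pairs. The share of loci at least 2-fold apart on this scale was 3.89% to 4.02% between the proteins, 3.84% to 4.16% between replicates and 4.33% to 5.27% against HG. These distances describe the libraries and were not tested.

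**Figure D1:**
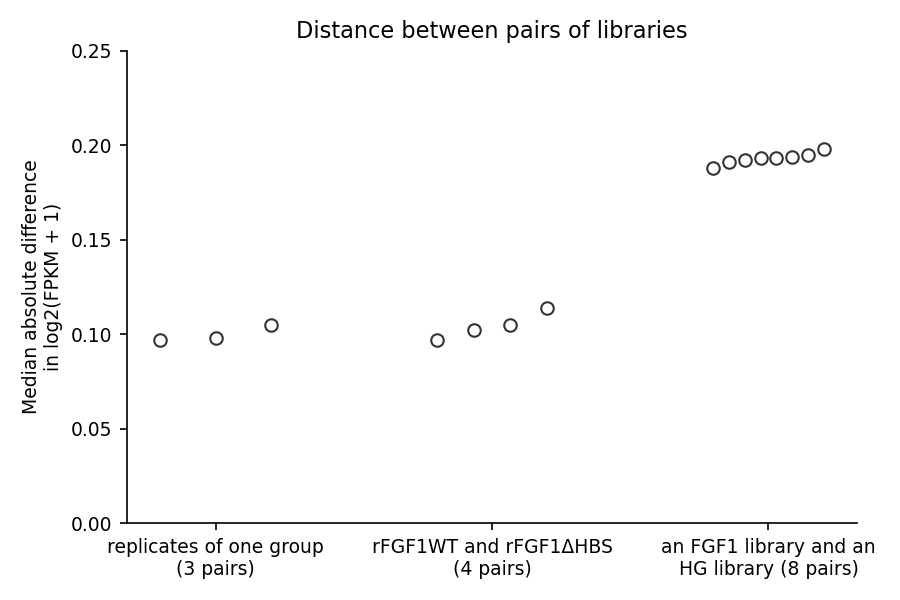
Median absolute difference in log2(FPKM + 1) over the 10264 compared loci (vertical axis) for each pair of libraries, drawn as open circles in 3 columns: replicates of one group, one library of each FGF1 protein, and an FGF1 library with an HG library. Pairs across the proteins (0.097 to 0.114) sit at the height of replicate pairs (0.097 to 0.105), and pairs with HG sit higher (0.188 to 0.198).

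Across all loci, 13 differed between the proteins by at least 2-fold on the log2(FPKM + 1) scale with an adjusted p under 0.05 (limma, Benjamini-Hochberg), which is 0.127% of the loci tested. Of these, 5 were higher with rFGF1ΔHBS (0.0487%) and 8 were lower (0.0779%). Without the 2-fold limit 17 loci had an adjusted p under 0.05 (0.166%), 6 higher and 11 lower, and 15 of them had mean FPKM at least 2-fold apart. The unadjusted p was under 0.05 for 496 loci (4.83%). A fit of only the 4 FGF1 libraries, without the HG libraries, passed 7 loci, of which 1, *Timp3*, was among the 13. With all 6 libraries and a term for the replicate number, 0 loci passed. Counts without single libraries ranged from 7 to 63, and were 7 without either HG library. Without the first rFGF1WT library there were 63 and without the second 50, and the balance of directions then turned, to 51 higher and 12 lower and to 38 higher and 12 lower. Without either HG or either rFGF1ΔHBS library, 1 of the 13 remained past the threshold. The median difference over all loci was 0.01 on the log2 scale, with 5339 loci higher with rFGF1ΔHBS and 4925 lower. The precision was a median 95% half-width of 0.270 on the log2 scale. For 84.7% of the loci the whole interval lay within a 2-fold difference in either direction on log2(FPKM + 1). For intervals, here and below, this is laxer than 2-fold in FPKM, most so at low values. A p above the threshold does not show that the proteins act alike at a locus, and the interval gives the differences still compatible with the data.

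**Figure D2:**
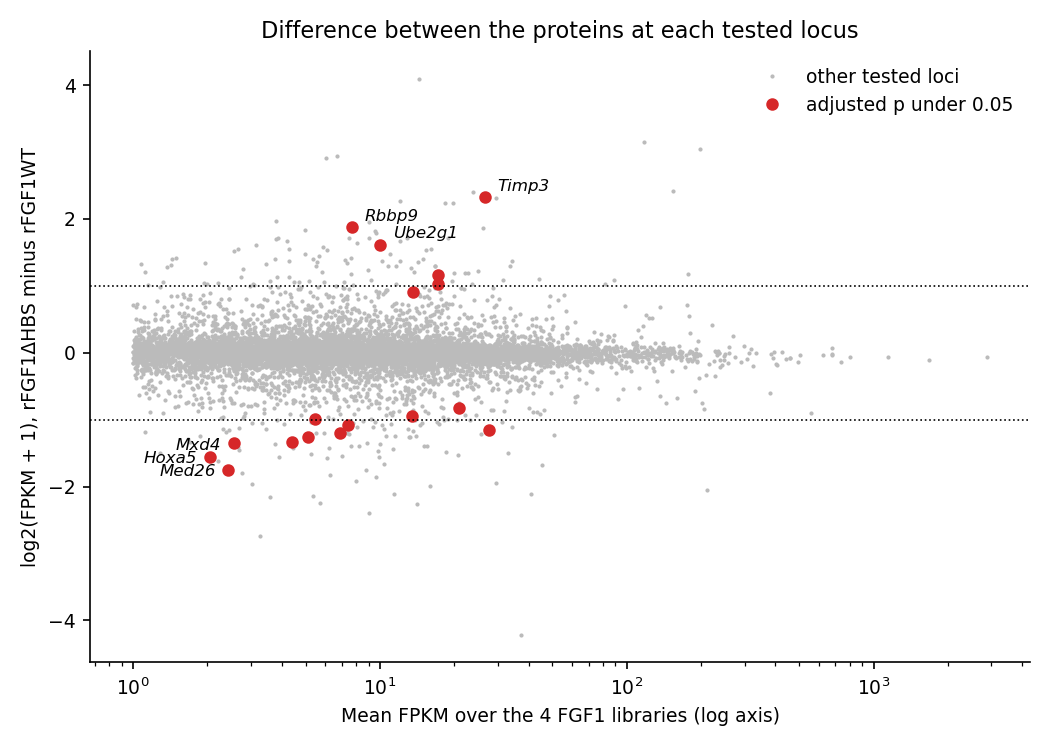
Difference in log2(FPKM + 1), rFGF1ΔHBS minus rFGF1WT (vertical axis), against the mean FPKM over the 4 FGF1 libraries (horizontal log axis) for the 10264 compared loci. Gray dots are loci with an adjusted p of 0.05 or more, red points the 17 loci below it, and dotted lines mark 2-fold. The red points are not the outermost ones, since many loci with larger differences had replicates that lay far apart.

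*Timp3* differed most reliably. It encodes a tissue inhibitor of metalloproteinases that is held in the extracellular matrix, and it lies on chromosome 10 of GRCm38 from 86300372 to 86349506, on the plus strand, with up to 5 exons. Its FPKM were 8.13 and 8.21 in the rFGF1WT libraries, 44.8 and 45.5 in the rFGF1ΔHBS libraries, and 48.1 and 47.4 in the HG libraries. The rFGF1WT libraries thus stood alone, at a level below every other library, and those with rFGF1ΔHBS lay just under HG. The mean was 5.52 times as high with rFGF1ΔHBS as with rFGF1WT, a difference of 2.33 on the log2(FPKM + 1) scale (standard error 0.05, 95% interval 2.21 to 2.45, adjusted p = 0.00241). *Timp3* lies within the locus of *Syn3* on the opposite strand, and *Syn3* had 0.227 to 0.344 FPKM over the 6 libraries.

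The other loci higher with rFGF1ΔHBS also had their lowest values with rFGF1WT. *Rbbp9*, which encodes a serine hydrolase that binds the retinoblastoma protein (chromosome 2, 144542265 to 144550869), had 2.54 and 2.92 FPKM with rFGF1WT, 12.5 and 12.8 FPKM with rFGF1ΔHBS and 20.7 and 21.7 FPKM under HG. Here rFGF1ΔHBS lay between the other groups, which did not overlap, and the difference between the proteins was 1.87 (95% interval 1.67 to 2.08, adjusted p = 0.0193). *Ube2g1*, which encodes a ubiquitin-conjugating enzyme, had 4.32 and 4.54 FPKM with rFGF1WT against 16.0 and 15.2 FPKM with rFGF1ΔHBS, a difference of 1.62 (1.43 to 1.80, adjusted p = 0.0199). Its HG libraries, at 15.9 and 17.2 FPKM, overlapped those with rFGF1ΔHBS. *Rnf114*, which encodes a ubiquitin ligase, had 9.71 and 10.8 FPKM with rFGF1WT, 25.0 and 23.5 FPKM with rFGF1ΔHBS and 32.8 and 32.2 FPKM under HG. The difference was 1.17 (0.98 to 1.36, adjusted p = 0.0296), with rFGF1ΔHBS again between the other groups. *Gabpa*, which encodes the DNA-binding ETS subunit of the GABP transcription factor, had 10.9 and 11.1 FPKM with rFGF1WT and 23.9 and 23.2 FPKM with rFGF1ΔHBS, against 22.9 and 23.9 FPKM under HG (difference 1.03, 0.89 to 1.18, adjusted p = 0.0227). *Mrpl46*, which encodes a protein of the large mitochondrial ribosomal subunit, differed by less than 2-fold, with 9.15 and 9.27 FPKM with rFGF1WT, 17.5 and 18.8 FPKM with rFGF1ΔHBS and 21.9 and 21.03 FPKM under HG (difference 0.91, adjusted p = 0.0417).

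Of the 11 loci lower with rFGF1ΔHBS, 9 had an HG level nearer to rFGF1WT. *Med26*, which encodes a subunit of the Mediator complex (chromosome 8, 72494561 to 72548270), had 0.549 and 0.599 FPKM with rFGF1ΔHBS, 4.29 and 4.29 FPKM with rFGF1WT and 4.72 and 4.51 FPKM under HG. The rFGF1WT mean was 7.47 times the rFGF1ΔHBS mean, and on the log2(FPKM + 1) scale, which understates changes of low values, the difference was -1.75 (95% interval -1.93 to -1.57, adjusted p = 0.0193). *Hoxa5*, a homeobox transcription factor gene on chromosome 6 from 52201754 to 52204587, had 0.440 and 0.661 FPKM with rFGF1ΔHBS, 3.59 and 3.52 FPKM with rFGF1WT and 3.32 and 3.36 FPKM under HG (difference -1.56, adjusted p = 0.0296). The *Hoxa5* locus lies wholly inside that of *Hoxa3* on the same strand, so fragments may be divided between them, and the *Hoxa3* difference was 0.13 (adjusted p = 0.908). *Hdgfl3*, a relative of hepatoma-derived growth factor, had 1.95 and 2.18 FPKM with rFGF1ΔHBS and 6.50 and 6.93 FPKM with rFGF1WT, against 8.63 and 8.11 FPKM under HG (difference -1.33, adjusted p = 0.0296). The rFGF1WT libraries lay between the other groups there.

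The same arrangement held for *Tsn*, which encodes the nucleic acid-binding protein translin. Its values were 3.83 and 3.77 FPKM with rFGF1ΔHBS, 9.57 and 10.5 FPKM with rFGF1WT and 12.7 and 12.4 FPKM under HG (difference -1.20, adjusted p = 0.0296). *Atxn7l3*, which encodes a subunit of the deubiquitinating module of the SAGA coactivator, had 4.40 and 4.46 FPKM with rFGF1ΔHBS, 10.6 and 10.4 FPKM with rFGF1WT and 11.2 FPKM in both HG libraries (difference -1.08, adjusted p = 0.0227). *2810006K23Rik* had 2.58 and 2.61 FPKM with rFGF1ΔHBS, 7.42 and 7.79 FPKM with rFGF1WT and 7.33 and 7.65 FPKM under HG, so that the HG and rFGF1WT ranges overlapped (difference -1.26, adjusted p = 0.0227). *Selenoi*, which encodes ethanolaminephosphotransferase, had 3.12 and 3.48 FPKM with rFGF1ΔHBS, 7.46 and 7.68 FPKM with rFGF1WT and 7.06 and 6.83 FPKM under HG (difference -0.995, adjusted p = 0.0475). Its mean FPKM were 2.29-fold apart, and it missed the 2-fold limit only on the log2(FPKM + 1) scale.

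At the other 4 loci lower with rFGF1ΔHBS, rFGF1WT stood clearly above HG. *Mrpl54*, which encodes another mitochondrial ribosomal protein, had 40.7 and 36.4 FPKM with rFGF1WT, 16.4 and 16.9 FPKM with rFGF1ΔHBS and 15.2 and 15.6 FPKM under HG. The difference between the proteins was -1.16 (95% interval -1.35 to -0.97, adjusted p = 0.0296). *Egln1*, which encodes the HIF prolyl hydroxylase PHD2, had 17.4 and 18.7 FPKM with rFGF1WT, 8.69 and 9.08 FPKM with rFGF1ΔHBS and 8.45 and 8.46 FPKM under HG (difference -0.94, 2.03-fold in mean FPKM, adjusted p = 0.0402). *Mxd4*, which encodes a MAX partner that opposes MYC, had 4.25 and 3.99 FPKM with rFGF1WT, 1.01 and 1.00 FPKM with rFGF1ΔHBS and 2.31 and 2.42 FPKM under HG. Its proteins thus lay on opposite sides of HG, and the difference between them was -1.35 (-1.54 to -1.16, adjusted p = 0.0227). *Rrp7a*, a ribosomal RNA processing gene, did likewise with 28.1 and 26.3 FPKM with rFGF1WT, 15.0 and 14.7 FPKM with rFGF1ΔHBS and 21.4 and 20.9 FPKM under HG (difference -0.83, adjusted p = 0.0419). By the log2 distance of the means, the HG level was nearer to rFGF1ΔHBS at 8 of the 17 loci and nearer to rFGF1WT at 9. How all tested loci divide in this way was not counted, so these counts are given as values only.

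**Figure D3:**
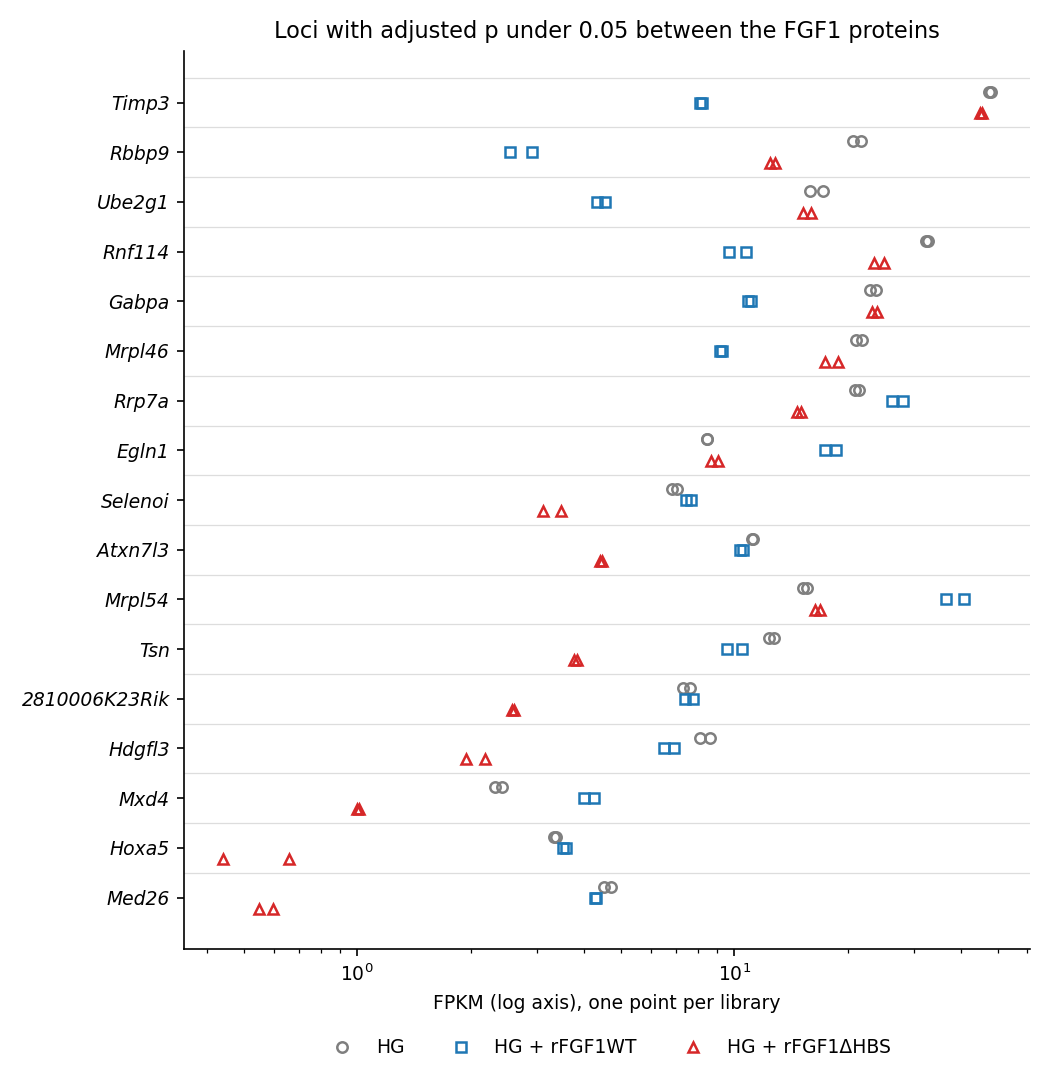
FPKM on a log axis in each of the 6 libraries for the 17 loci with an adjusted p under 0.05, ordered by the difference between the proteins. Gray circles are HG, blue squares rFGF1WT and red triangles rFGF1ΔHBS, each point 1 library; replicates nearly coincide, and at *Timp3* the rFGF1WT libraries (8.13 and 8.21) stand far below the others while at *Med26* the rFGF1ΔHBS libraries (0.549 and 0.599) do.

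Replicates of the proteins were close at all 17 loci, at most 0.21 apart on the log2 scale. With so few libraries the test favors loci with close replicates, so this closeness follows from how the 17 were picked. Many loci with larger differences had replicates far apart. Of the 204 loci at least 2-fold apart, 135 had replicates of one protein that also differed by at least 2-fold, as did 685 of all tested loci. The other 69 had replicates of both proteins within 2-fold. The threshold was passed by 13 of the 204. The locus with the largest fitted difference, *Samd9l*, was looked up for that size. It had 70.6 and 72.7 FPKM with rFGF1WT and 3.05 and 2.78 FPKM with rFGF1ΔHBS, but its HG libraries were at 67.5 and 2.97 FPKM (difference -4.21, 95% interval -7.85 to -0.58, adjusted p = 0.908). *Cdc42ep2*, looked up likewise, had 27.8 and 28.5 FPKM with rFGF1ΔHBS and 0.293 and 1.24 FPKM with rFGF1WT, with HG at 0.846 and 32.5 FPKM (adjusted p = 0.908). In both, the replicates of HG differed as widely as the proteins did. Of the 17 loci, 10 overlap another annotated locus (58.8%), as do 42.6% of all tested loci with a position, and 5 overlap a tested one. None of those 5 partners had an adjusted p under 0.05, and the part of shared fragments in these values was not tested.

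The FGF-ERK feedback genes, an indirect mRNA readout of receptor signaling taken after 12 h in HG, did not pass the test between the proteins. Of 16 genes 15 were tested, 8 were higher and 7 lower with rFGF1ΔHBS, none had an unadjusted p under 0.05, and the median difference was 0.00, against 0.01 over all loci. *Etv4*, an ETS factor gene, had 8.03 and 5.42 FPKM with rFGF1WT, 6.17 and 6.12 FPKM with rFGF1ΔHBS and 0.0580 and 0.0786 FPKM under HG. The ranges of the proteins overlapped, and the difference was -0.09 with an interval of -0.56 to 0.38. *Etv5*, its close relative, had 7.72 and 8.31 FPKM with rFGF1WT and 8.23 and 8.42 FPKM with rFGF1ΔHBS (difference 0.05, -0.15 to 0.25), against 0.486 and 0.578 FPKM under HG. *Spry4*, which encodes a Sprouty inhibitor of the RAS pathway, had 1.69 and 1.48 FPKM with rFGF1WT and 1.58 and 1.69 FPKM with rFGF1ΔHBS (difference 0.03, -0.19 to 0.25), with HG libraries at 0.0568 and 0.0590 FPKM. For these 3 genes the intervals of the difference lay within 2-fold, and every library with either protein stood above both HG libraries.

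For most of the other feedback genes, too, the difference between the proteins was small. *Dusp5*, which encodes a nuclear ERK phosphatase, had 3.76 and 3.57 FPKM with rFGF1WT and 3.57 and 3.72 FPKM with rFGF1ΔHBS (difference -0.01, -0.22 to 0.20). *Phlda1* had 40.1 and 42.8 FPKM with rFGF1WT and 40.3 and 43.7 FPKM with rFGF1ΔHBS (0.02, -0.28 to 0.32). The intervals of *Spry2*, *Spred2*, *Spred3*, *Dusp7*, *Il17rd* and *Fosl1* also lay within 2-fold, with differences between -0.12 and 0.23. For 4 of the 15 the interval reached beyond 2-fold, because their replicates disagreed. *Dusp6*, which encodes the cytoplasmic ERK phosphatase, had 9.90 and 26.3 FPKM with rFGF1ΔHBS and 10.4 and 9.38 FPKM with rFGF1WT (0.66, -0.54 to 1.87). *Spred1*, which encodes an inhibitor of RAF activation, had 6.73 and 28.1 FPKM with rFGF1WT and 30.5 and 28.8 FPKM with rFGF1ΔHBS (1.03, -0.67 to 2.73). Without the second rFGF1WT library the *Spred1* difference was 1.99 (adjusted p = 0.0284), and without the first it was 0.08. *Spry1*, whose locus is merged with *Gm43820*, and *Dusp4* had intervals of -2.60 to 2.44 and -1.24 to 0.58. The remaining member, *Etv1*, had at most 0.0920 FPKM.

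**Figure D4:**
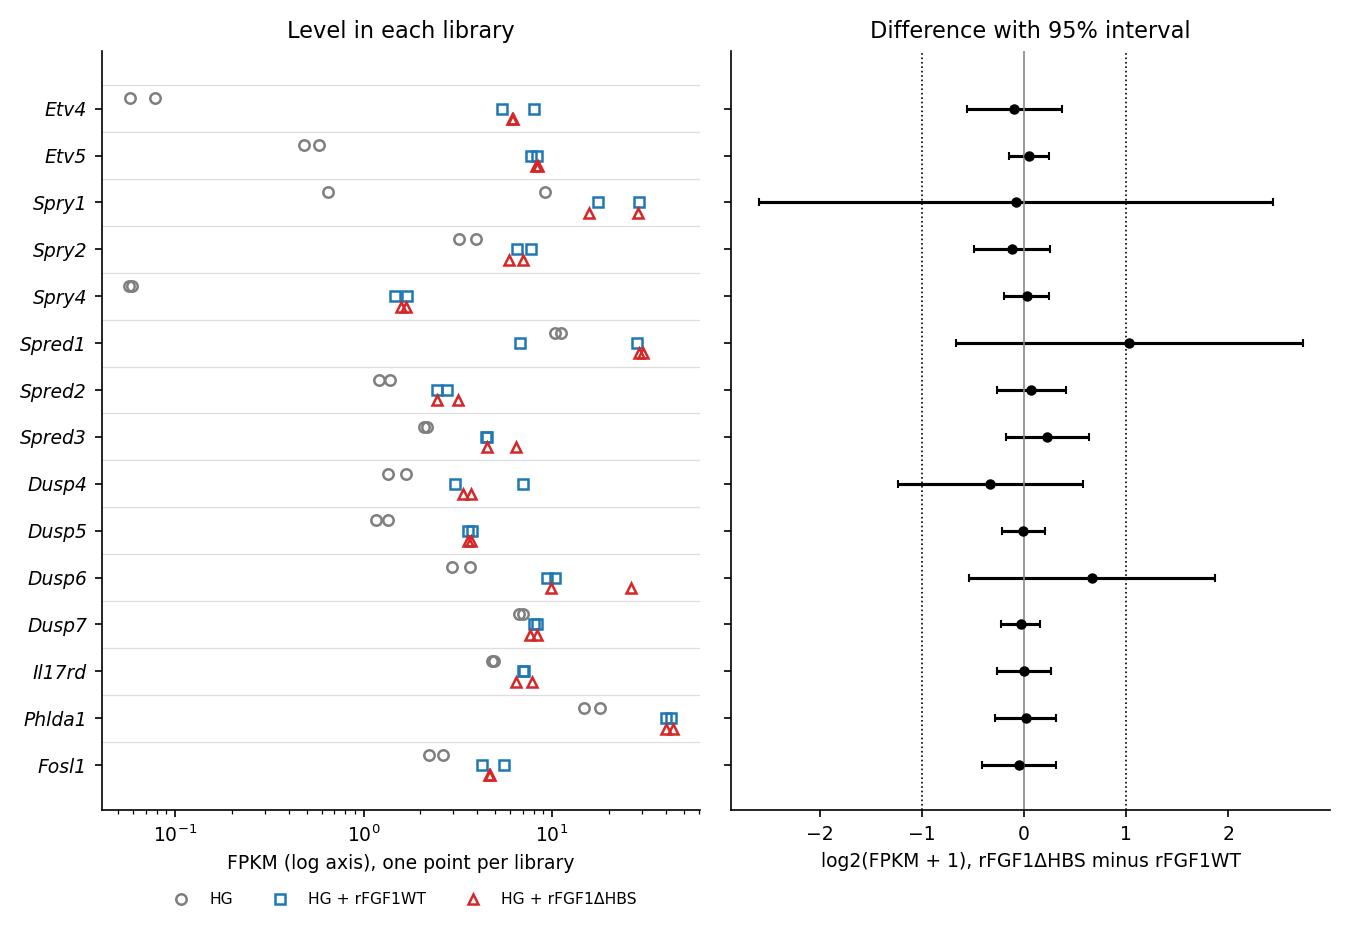
Left, FPKM on a log axis in each library for the 15 tested FGF-ERK feedback genes, with gray circles for HG, blue squares for rFGF1WT and red triangles for rFGF1ΔHBS. Right, the difference in log2(FPKM + 1), rFGF1ΔHBS minus rFGF1WT, with its 95% interval and dotted lines at 2-fold; *Spry1*, *Spred1*, *Dusp4* and *Dusp6* have intervals that pass a dotted line, and the other 11 lie within them.

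Upstream of these genes, 19 of 23 FGF receptors and adaptors were tested, with a median difference of 0.02 and none with an adjusted p under 0.05. The receptor gene *Fgfr1* had 5.87 and 5.90 FPKM with rFGF1WT and 6.11 and 6.44 FPKM with rFGF1ΔHBS, and *Fgfr3* had 4.38 and 4.80 FPKM against 4.65 and 4.32 FPKM. The *Fgfr2* locus, which the table merges with *Ctbp2*, had 6.54 and 6.56 FPKM against 7.40 and 7.41 FPKM, and *Fgfr4* had at most 0.0126 FPKM. Since the substitutions of rFGF1ΔHBS lie in the heparan sulfate site, the genes of that polysaccharide were described too. Among heparan sulfate core proteins 10 of 12 were tested (3 higher, 7 lower, median -0.05), and perlecan, *Hspg2*, had 131 and 138 FPKM with rFGF1WT and 131 and 150.02 FPKM with rFGF1ΔHBS (0.06, -0.15 to 0.27). Of 23 synthesis and editing enzymes 16 were tested (10 higher, 6 lower, median 0.06), among them the sulfotransferase gene *Hs6st1* with 49.8 and 51.4 FPKM against 47.1 and 47.0 FPKM (-0.10, -0.22 to 0.02). No member of either list had an adjusted p under 0.05.

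Proliferation genes were of interest because the partial agonist is described as less mitogenic. Of 22 genes of the G1 phase 21 were tested, with 12 higher, 9 lower and a median of 0.03. *Ccnd1*, which encodes cyclin D1, had 40.2 and 39.5 FPKM with rFGF1WT and 39.1 and 42.5 FPKM with rFGF1ΔHBS, against 5.53 and 5.05 FPKM under HG. The proteins overlapped and their difference was 0.03 (-0.16 to 0.22). All 34 DNA replication genes were tested, 17 higher and 17 lower, with a median of 0.00, and 33 of the 34 intervals lay within 2-fold. *Mcm7*, a subunit of the replicative helicase, had 128 and 123 FPKM with rFGF1WT against 123 and 128 FPKM with rFGF1ΔHBS. Among 25 mitosis genes the median was 0.05, with 15 higher and 10 lower, and *Mki67*, which encodes the proliferation antigen Ki-67, had 53.4 and 59.2 FPKM against 58.7 and 57.3 FPKM (0.04, -0.13 to 0.22). No tested gene of these 3 lists had an adjusted p under 0.05.

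Growth genes were divided about evenly between the directions. The list of the MYC network and ribosome biogenesis held 29 tested genes, 15 higher and 14 lower, with a median of 0.01, and *Mxd4*, described above, was its only member with an adjusted p under 0.05. *Myc* itself had 15.9 and 18.8 FPKM with rFGF1WT and 16.0 and 16.5 FPKM with rFGF1ΔHBS (-0.09, -0.50 to 0.33), against 7.11 and 9.52 FPKM under HG. All 39 translation initiation factors were tested, 20 higher and 19 lower, with a median of 0.00. Of 20 immediate early genes, which answer growth factors within minutes, 13 were tested and 9 were higher, with a median of 0.07 and no unadjusted p under 0.05. *Egr1* had 13.3 and 15.0 FPKM with rFGF1WT and 13.7 and 13.6 FPKM with rFGF1ΔHBS (-0.05, -0.27 to 0.17).

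The study also measured *Fen1*, *Eif4g1*, *Jund* and *Ehbp1* by real-time PCR. It reports significantly lower proliferative signals in these cells with rFGF1ΔHBS than with rFGF1WT. The primers give the part of each transcript that the assay reads. They were placed on the GENCODE M21 transcripts of the gene they are named for, and transcripts of other genes were not searched.
Ehbp1 forward: cagcgtgtgggaaaacatgc
Ehbp1 reverse: tgtccaaacaaccaccagttta
Jund forward: ccatcgacatggacacgcaa
Jund reverse: cagctcggtgttctggcttt
Fen1 forward: catcaagcctgtgtacgtctt
Fen1 reverse: tgggtgcatcaaggtaaggga
Eif4g1 forward: aagacctcatctcgcatccg
Eif4g1 reverse: tgttctcggtgctcttccatc
The *Ehbp1* pair matched 4 coding transcripts with a product of 111 bp, all of them in the *Ehbp1* locus on chromosome 11 from 22005828 to 22342292, which has up to 25 exons. That locus had 3.82 and 3.64 FPKM with rFGF1WT, 3.96 and 4.12 FPKM with rFGF1ΔHBS and 4.28 and 4.08 FPKM under HG (difference 0.09, -0.09 to 0.27, adjusted p = 0.908). The table holds a second locus named *Ehbp1*, made of 1 assembled transcript with no Ensembl identifier, which was listed at 0 in both rFGF1ΔHBS libraries and had 15.6 and 17.9 FPKM with rFGF1WT and 14.0 and 13.4 FPKM under HG. Having no annotated transcript, that second locus could not be matched by this placement, and whether the assay reads it was not tested.

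The *Jund* pair lies in the coding part of a one-exon gene (chromosome 8, 70698949 to 70700616), with a product of 152 bp. *Jund*, which encodes a subunit of the AP-1 transcription factor, was listed at 0 in both rFGF1ΔHBS libraries, had 65.1 and 62.9 FPKM with rFGF1WT, and had 59.5 and 5.33 FPKM under HG, so the HG replicates lay far apart. *Fen1*, a flap endonuclease gene of DNA replication, had 37.1 and 22.7 FPKM with rFGF1WT and 25.3 and 25.2 FPKM with rFGF1ΔHBS, and the latter lay inside the range of the former (-0.19, -0.86 to 0.47). *Eif4g1*, which encodes the scaffold of the cap-binding complex, had 133 and 137 FPKM with rFGF1WT and 138 and 140.3 FPKM with rFGF1ΔHBS (0.04, -0.07 to 0.16), both above the 100.4 and 97.8 FPKM under HG. Their primer pairs give products of 236 and 143 bp. The *Eif4g1* pair matched 9 transcripts, coding and non-coding, and not all of them are in the deposited table. Of the 19 genes the study names from these libraries 14 were tested, 6 higher and 8 lower, with a median of -0.01 and no adjusted p under 0.05. They were picked on these samples and so are no independent evidence of a direction.

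*Jund* and the second *Ehbp1* locus are among 23 loci that reached a mean of 1 FPKM while at 0 in both libraries of one protein and above 0 in both of the other. These were left out of the test, and no fold is given against values listed at 0. At 0 with rFGF1ΔHBS were 11, with *Jund*, *Utp3*, *Klhl9*, *Ehbp1*, *Gm11353*, *Tfap2a*, *Hist1h2ag*, *Gm17828*, *Rpl31-ps9* and *Tmem158* as the 10 of highest mean. The *Tfap2a* locus, like that of *Ehbp1*, could not be placed in the annotation and is not the only one of its symbol. The other *Tfap2a* locus was tested and had 6.77 and 5.74 FPKM with rFGF1WT and 6.63 and 6.02 FPKM with rFGF1ΔHBS (0.02, -0.24 to 0.28, adjusted p = 1.00). *Utp3*, a ribosome biogenesis gene, had 41.6 and 38.8 FPKM with rFGF1WT, and 38.0 FPKM and 0 in the HG libraries. *Tmem158*, which encodes a membrane protein, had 4.28 and 4.43 FPKM with rFGF1WT and 1.43 and 1.53 FPKM under HG. At 0 with rFGF1WT were 12, led by the predicted gene *Gm15710* with 77.6 and 80.5 FPKM with rFGF1ΔHBS and 95.6 and 98.0 FPKM under HG. The ribosomal pseudogene *Rpl17-ps10* had 65.2 and 62.2 FPKM with rFGF1ΔHBS and was at 0 in the other 4 libraries. *Itpripl2* had 17.2 and 17.6 FPKM with rFGF1ΔHBS and 13.6 and 13.7 FPKM under HG, and *Gm13502*, *Gm14760*, *Gm12671*, a pair of unnamed loci, *Gm5451* and *Gm15583* complete the 10 of highest mean, with values up to 9.71 FPKM in the rFGF1ΔHBS libraries.

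These loci have a structure in common. All 18 of the 23 that could be placed in the annotation have a single exon, as do 88.6% of the loci at 0 in some of the 4 libraries in another arrangement and 2.59% of the tested loci. The same kind of gap occurred between replicates. Between 130 and 138 loci were at 0 in 1 library of a group and at 2 FPKM or more in its replicate, and 126 to 153 were so between an rFGF1WT and an rFGF1ΔHBS library. For 5 of the 11 and 7 of the 12 loci both HG libraries were above 0. The part that transcript assembly has in these zeros was not tested.

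The medians of 23 of the 24 lists lay within 0.1 of 0, those of survival and stress genes among them. Single members lay farther out, for example at -1.92 among PI3K-AKT components and -1.40 in the Nrf2 list. Others lay at -1.57 among chemokines, cytokines and receptors and at 1.95 among heparan sulfate enzymes. None of these had an adjusted p under 0.05. Of the PI3K-AKT components 24 were tested, 11 higher and 13 lower, with a median of -0.02, and *Akt1* had 50.0 and 63.1 FPKM with rFGF1WT and 57.7 and 47.1 FPKM with rFGF1ΔHBS. FOXO factors and targets held 22 tested genes (13 higher, 9 lower, median 0.02), and *Foxo3* had 16.0 and 15.7 FPKM with rFGF1WT and 12.6 and 7.17 FPKM with rFGF1ΔHBS (-0.68, -1.34 to -0.02, adjusted p = 0.908). The BCL2 family held 13 tested genes (9 higher, 4 lower, median 0.06), with the survival gene *Bcl2l1* at 16.9 and 16.3 FPKM against 16.6 and 17.7 FPKM. Of 26 tested genes of the Nrf2 list 17 were lower (median -0.05). *Nfe2l2*, which encodes Nrf2, had 41.2 and 42.0 FPKM with rFGF1WT and 42.7 and 42.8 FPKM with rFGF1ΔHBS (0.04, -0.13 to 0.21). Of 18 oxidant enzymes 12 were lower (median -0.02), and *Sod2* and *Cat* had differences of -0.02 each, with intervals within -0.26 and 0.21. *Nqo1* and *Nox4* were below the filter in all libraries, with at most 0.359 and 0.302 FPKM.

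Inflammatory genes were read from 34 tested chemokines, cytokines and receptors, 14 of them higher and 20 lower (median -0.03). The acute-phase gene *Lbp* had 14.6 and 15.6 FPKM with rFGF1WT and 14.6 and 17.4 FPKM with rFGF1ΔHBS (0.07, -0.19 to 0.34), and the chemokine gene *Cxcl12* had 8.19 and 8.46 FPKM against 8.42 and 8.18 FPKM (0.00, -0.24 to 0.23). The interferon gamma receptor gene *Ifngr2* had 24.2 and 40.3 FPKM against 22.1 and 23.7 FPKM (-0.43, -1.08 to 0.21), with 1 rFGF1WT library near the HG values of 40.7 and 40.6 FPKM. *Il33* had 2.19 and 2.52 FPKM against 2.16 and 2.20 FPKM (-0.08, -0.35 to 0.19), and *Il17rb* had at most 0.235 FPKM with either protein. The interferon response list had the median farthest from 0, at -0.11, with 19 of its 26 tested loci lower with rFGF1ΔHBS. None had an adjusted p under 0.05, and 2 had an unadjusted p under 0.05, both lower, which is 7.69% against 4.83% of all loci. *H2-K1*, a class I antigen gene, had 70.7 and 64.6 FPKM against 53.0 and 63.5 FPKM (-0.22, -0.49 to 0.06). The median of the list was between -0.14 and -0.09 when any of the 4 FGF1 libraries was left out.

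Matrix and fibrosis genes held 31 tested members, 17 higher and 14 lower, with a median of 0.01, and *Timp3* was the only one with an adjusted p under 0.05. *Fn1*, which encodes fibronectin, had 149.6 and 152 FPKM with rFGF1WT and 152 and 164 FPKM with rFGF1ΔHBS (0.07, -0.08 to 0.21). *Lama1*, which encodes a laminin chain, had 5.65 and 5.70 FPKM against 5.48 and 6.27 FPKM (0.04, -0.18 to 0.26). Of the HIF hydroxylases and hypoxia genes 19 were tested, 10 higher and 9 lower, with a median of 0.00 and *Egln1* as the only adjusted p under 0.05. *Hif1an*, which encodes the other class of HIF hydroxylase, had 3.18 and 2.95 FPKM with rFGF1WT and 6.67 and 4.27 FPKM with rFGF1ΔHBS (0.65, 0.13 to 1.16, adjusted p = 0.900). Of 10 tested integrin subunits 5 were higher and 5 lower, and *Itga9* had 6.52 and 7.16 FPKM against 6.03 and 6.97 FPKM (-0.07, -0.72 to 0.59). Podocyte markers (16 tested, median 0.03), markers of other kidney cells (6 tested, median 0.05) and 20 housekeeping genes (median 0.02) had no adjusted p under 0.05. Over all 24 lists, 3 of 476 distinct tested loci had one (0.63%, against 0.166% of all loci), *Timp3*, *Mxd4* and *Egln1*. The lists were chosen with earlier results of these data known, so this share is no independent evidence about them.

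**Figure D5:**
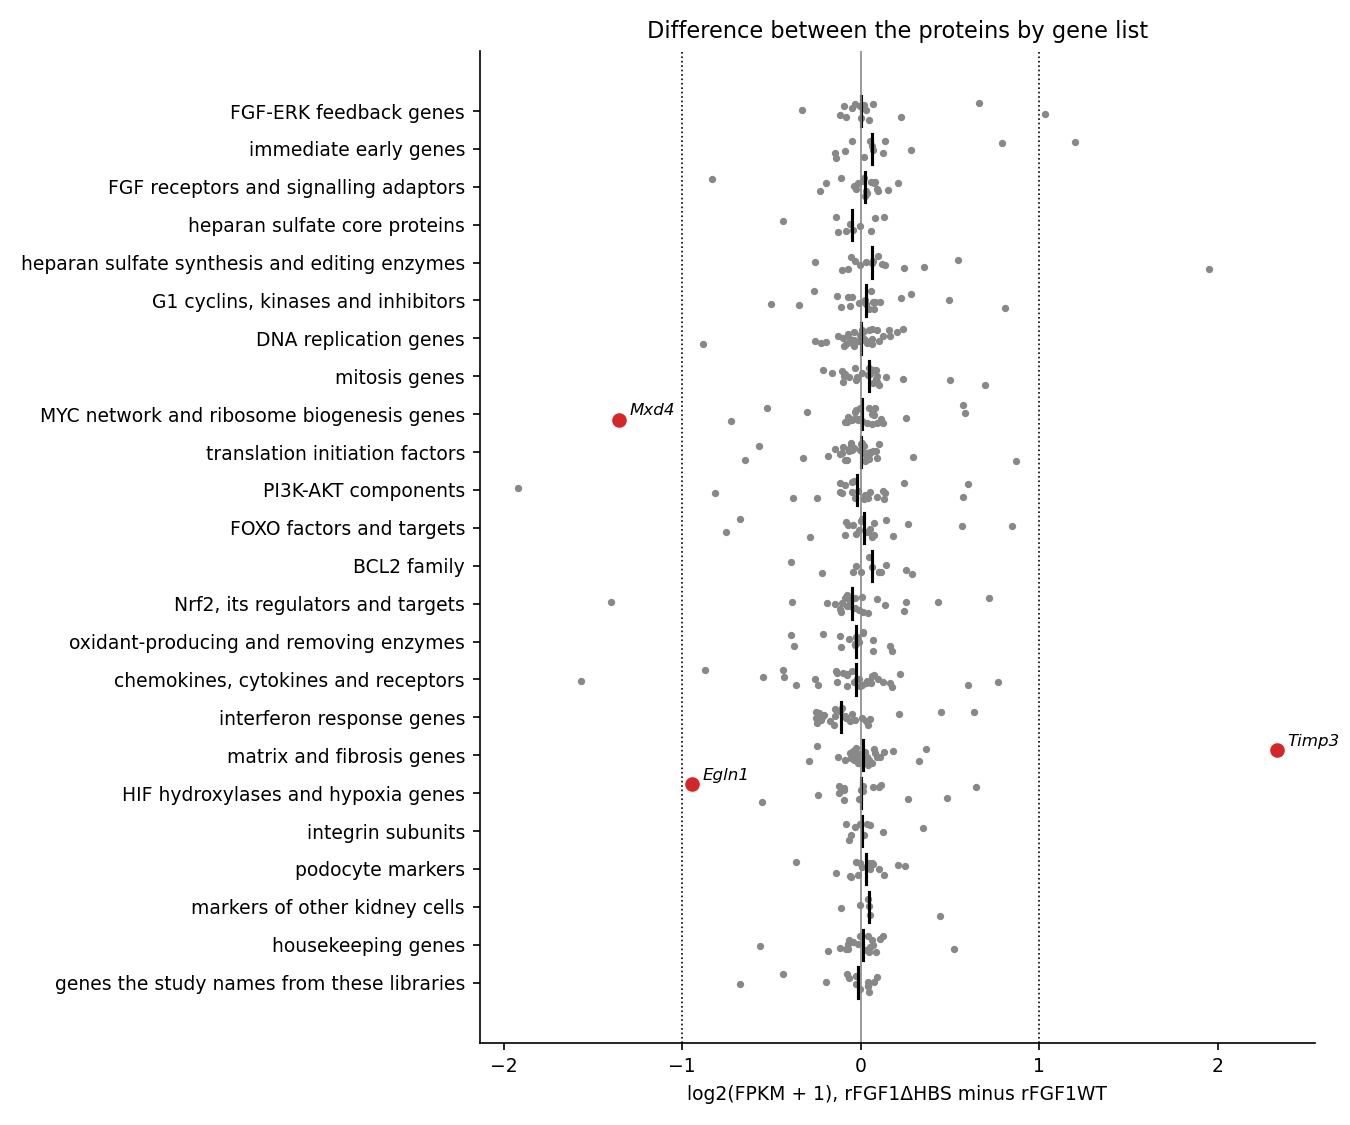
Difference in log2(FPKM + 1), rFGF1ΔHBS minus rFGF1WT (horizontal axis), of the tested members of 24 gene lists, 1 point per locus, with black bars at the list medians and dotted lines at 2-fold. Points are spread vertically within a list for legibility; the 3 red points, *Mxd4*, *Timp3* and *Egln1*, have an adjusted p under 0.05, and the interferon response list has the median farthest from 0, at -0.11.

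The most abundant members of the lists, those among the 3 of highest mean in each, had no adjusted p under 0.05 between the proteins. Upstream signaling was represented by *Mapk3*, which encodes ERK1 and shares its locus with a neighbor, and by the phosphatase gene *Ptpn11*, with differences of -0.23 and 0.09. *Mapk3* had 38.2 and 41.1 FPKM with rFGF1WT and 31.8 and 35.6 FPKM with rFGF1ΔHBS, so that its ranges did not overlap (-0.47 to 0.02). The heparan sulfate carriers *Col18a1* and *Sdc4* had differences of -0.08 and -0.01, and the enzymes *Ndst1* and *Papss1* 0.54 and -0.03. *Ndst1*, a sulfotransferase gene, had 1 rFGF1WT library at 18.9 FPKM and the other 3 at 39.9 to 42.1 FPKM (-0.43 to 1.52). Among proliferation genes, *Cdk4*, *Cdkn2a*, *Mcm4*, *Mcm3*, *Ccna2* and *Cdc20* had differences between -0.10 and 0.09, and the growth genes *Npm1*, *Ncl*, *Nolc1*, *Eif3h*, *Eif4b* and *Eif3l* between -0.08 and 0.07. The immediate early genes *Klf6* and *Ier3* had differences of 0.13 each.

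Among survival and stress genes, *Pik3r2* and *Gsk3a* had differences of -0.12 and -0.09, and *Cited2*, *Txnip* and *Gabarapl1* had -0.28, 0.07 and 0.27. *Bak1*, which encodes a pro-apoptotic pore protein, had 38.1 and 41.7 FPKM with rFGF1WT and 34.4 and 26.5 FPKM with rFGF1ΔHBS (-0.39, -0.77 to -0.01, adjusted p = 0.908), *Bid* had a difference of -0.22, and *Mcl1* had -0.03 with a wide interval of -1.89 to 1.84. *Gstm1*, which encodes a glutathione transferase, had 229.7 and 259.6 FPKM with rFGF1WT and 294.1 and 289.6 FPKM with rFGF1ΔHBS (0.26, 0.07 to 0.44, adjusted p = 0.809). The ferritin genes *Fth1* and *Ftl1* had differences of -0.06 and -0.01. The antioxidant genes *Sod1*, *Gpx4* and *Txn1* had -0.37, -0.21 and -0.12, each with an interval that held 0. *Csf1*, *Il6st* and *Ccl2* had differences of 0.01 to 0.05, and *B2m* and *H2-D1* of -0.08 and -0.15. *Sparc*, *Thbs1*, *Ldha*, *Ndrg1*, *P4ha1*, *Itgb1*, *Itga3* and *Itgb5* lay between -0.12 and 0.12. *Vim* and *Actn4* had differences of -0.06 and 0.01, and the housekeeping genes *Eef1a1*, *Actb* and *Rplp0* had -0.07, -0.11 and -0.01.

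The pathway column of the table was read for 9 larger sets. Of the 193 tested loci in the PI3K-Akt pathway 110 were higher and 83 lower with rFGF1ΔHBS (median 0.02), and of 162 in the MAPK pathway 87 were higher and 75 lower (0.01). The Ras, FoxO, cell cycle, focal adhesion and ECM-receptor pathways had medians of 0.02 to 0.03. Of the 126 loci of the ribosome pathway, which encode ribosomal proteins, 91 were lower with rFGF1ΔHBS and 35 higher, with a median of -0.07. Of these, 12 had an unadjusted p under 0.05, which is 9.52% against 4.83% of all loci. Leaving out any of the 4 FGF1 libraries, an alternative added after seeing the data, gave medians of -0.09 to -0.03. Oxidative phosphorylation held 97 loci, 37 higher and 60 lower (median -0.02). No locus of these 9 pathways had an adjusted p under 0.05.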

How the data were processed

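The authors isolated poly(A) RNA, sequenced paired ends and deposited 1 table of FPKM per locus, together with KEGG pathways. Limits of an adjusted p under 0.05 and 2-fold were used, the latter on log2(FPKM + 1). For a locus to pass, this is stricter than 2-fold in FPKM, and for an interval within 2-fold it is laxer. The submitters' processing notes name Bowtie 0.12.2, HISAT2 2.0, StringTie 1.3.0 and the build mm8, with no role for each, and whether strand was used is not given in the sources used here, so that overlapping antisense genes cannot be told apart. The loci carry identifiers of assembled or of Ensembl transcripts. Of 78903 Ensembl transcripts 99.6% were found in GENCODE M21 (GRCm38), which gave all positions and exons, and 10122 of the 10264 tested loci could be placed.

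FPKM are not counts, so limma 3.58.1 (R 4.3.3) was run on log2(FPKM + 1) of all 6 libraries in 3 groups, with eBayes and a trend, which left 3 residual degrees of freedom. The spread shared over loci added 1.51 prior degrees of freedom. The contrast was rFGF1ΔHBS minus rFGF1WT, with Benjamini-Hochberg adjustment over all 10264 loci and two-sided tests. An exact permutation test of 2 against 2 libraries cannot go below 0.333 and was not used. The fit was also run on simulated data with changed and unchanged genes. The simulated noise was independent between libraries, so it cannot speak to shifts of the counts with the replicate term or single libraries. Differences and intervals in the text are on the log2(FPKM + 1) scale unless given as FPKM. Plots were drawn with matplotlib 3.10.9 and tables made with pandas 2.3.3, both under Python 3.11.15.

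Named loci are those past the threshold or with an adjusted p under 0.05, all tested members of the feedback list and of the genes the study names, the 3 tested members of highest mean FPKM in each list, and the 10 loci of highest mean at 0 with each protein. Outside this rule, *Egr1*, the FGF receptor genes, *Hif1an*, *Samd9l*, *Cdc42ep2*, overlapping neighbors, genes under the filter and the other markers of the label check were named after their values were seen. Some items that the rule names are not reported here. A symbol with several loci was given by the tested locus of highest mean. The comparison, lists and rules were chosen with earlier results of these data known. Alternatives were another pseudocount (0.1), other filters (none, or a mean FPKM of 5), loci at 0 kept or excluded, the 4 FGF1 libraries alone, median-ratio and quantile scaling, other variance settings, a replicate block, summed loci and each library left out.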

Additional observations from a re-analysis of the deposited data

Results flagged for a closer look

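At 4 of the 17 loci with an adjusted p under 0.05, both rFGF1WT libraries lay above both HG libraries and both rFGF1ΔHBS libraries lay below them. The ranges of the proteins did not overlap at any of the 17, so HG could only lie above, below, between or across them. How often all tested loci have this arrangement was not counted, so the 4 are given as values only. The difference between the proteins was tested directly and was -1.35 for *Mxd4*, -1.56 for *Hoxa5*, -0.83 for *Rrp7a* and -0.995 for *Selenoi* on the log2(FPKM + 1) scale. The departure from HG in opposite directions was not itself tested. At *Mxd4* the means differed from HG by 0.60 with rFGF1WT and by -0.75 with rFGF1ΔHBS, and at *Rrp7a* by 0.34 and -0.49. At *Hoxa5* (0.07 and -1.49) and *Selenoi* (0.11 and -0.89) the rFGF1WT libraries stood only slightly above HG.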

How the results depend on the processing

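The 13 loci past the threshold (17 without the 2-fold limit) became 23 (29) at a pseudocount of 0.1, 38 (59) when loci at 0 in some libraries were kept (19 of the 38 higher and 19 lower, against 5 and 8), and 7 (7) with the 4 FGF1 libraries alone. The count without the 2-fold limit was 26 without a variance trend and 31 with loci of one symbol summed. All other alternatives that kept the 6 libraries stayed within 1.5 times of these counts, except the replicate block. Deviations of replicates with the same number showed little correlation over all loci (-0.001 between the proteins, 0.019 and 0.1 against HG). The labels do not say whether replicate numbers pair the libraries. The fit with a replicate block passed 0 loci with and 0 without the 2-fold limit in limma, with 437 at an unadjusted p under 0.05. Leaving out 1 library gave 7 to 63 loci by either limit, with 7 without either HG library, 63 without the first and 50 without the second rFGF1WT library, where the remaining library is assumed to vary like the others. No difference of the 17 loci changed sign under any alternative. *Timp3* had an adjusted p under 0.05 in every alternative but the block (0.0605), and *Hoxa5*, *Selenoi*, *Mrpl46*, *Hdgfl3*, *Egln1* and *Rrp7a* lost it whichever library was left out. The cause of these shifts was not tested. With 2 libraries per group, the median 95% half-width of 0.270 limits what could be detected, and read totals are unknown.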
